A study of Oryza sativa with 45 samples.

Results

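The transcripts described here are 150 rice genes whose level in the cultivar IR64 was highest at 8 d of submergence, between lower levels at 2 d, 4 d and 14 d. They were chosen by their values in the IR64 libraries alone. Counts were scaled to CPM (the count of a gene over the library total, times 1000000), the mean CPM of each day was taken, and genes with an 8 d mean of at least 10 CPM were kept, which left 13052 of the 35677 genes counted. These were ranked by the 8 d mean over the highest mean of the other days, with 0.5 CPM added to both, and the first 150 were taken. The ratio ran from 29.2 at rank 1 through a median of 4.21 to 2.70 at rank 150.

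Rice is the cereal that can germinate under water. In oxygen-poor water the embryo first extends the coleoptile, while root and leaf growth are held back. The coleoptile is a hollow sheath that grows by cell elongation on sugars fermented to ethanol. When oxygen and light reach the shoot, leaves and roots emerge, fermentation genes fall and photosynthesis genes rise.

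Seeds of 4 genotypes were kept under water from day 0 in pots in a nethouse. IR64 is an indica cultivar that carries the SUB1A-2 allele and lacks TPP7, the trehalose-6-phosphate phosphatase gene of the AG1 locus for anaerobic germination. IR64(AG1) carries an introgressed AG1 segment with TPP7, IR64(SUB1) carries an introgressed SUB1 segment with SUB1A-1, an ethylene response factor that restrains growth under submergence, and IR64(AG1,SUB1) carries both. Each line is a single near-isogenic introgression line, so an effect of the named locus and one of another introgressed stretch cannot be told apart, and all groups were submerged, so no air-grown control was analysed here. RNA came from the embryo, coleoptile and shoot of pooled seedlings (45 per sample). The labels give the tissue as embryo at 2 d and as coleoptile at 4 d, 8 d and 14 d. There were 3 libraries per genotype and day, except 2 for IR64(AG1,SUB1) at 2 d (replicates 2 and 3), for IR64(AG1,SUB1) at 4 d (replicates 1 and 2) and for IR64(SUB1) at 8 d (replicates 2 and 3). The study's methods describe triplicate biological experiments. The labels do not say whether a shared replicate number marks a shared experiment across genotypes, so p-values measure the spread between these samples only.

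The 45 libraries held 12256409 to 24870831 counts (median 20459708). A SUB1A-1 sequence added to the reference read 0 to 26.1 CPM in the libraries without the SUB1 introgression and 0 to 191 CPM in those with it. Marker genes changed strongly with the day. Pyruvate decarboxylase (OS05G0469600), the first enzyme of ethanol fermentation, read 703 to 912 CPM at 4 d, 6.21 to 93.9 CPM at 8 d and 0.304 to 19.4 CPM at 14 d. A chlorophyll a/b-binding protein gene (OS01G0720500) read 0.579 to 9.86 CPM at 4 d and 383 to 1920 CPM at 8 d, with 544 to 2340 CPM at 14 d. A cellulose synthase gene (OS01G0750300) read 19.9 to 82.2 CPM at 8 d and 179 to 294 CPM at 14 d. The root silicon transporter genes Lsi1 (OS02G0745100) and Lsi2 (OS03G0107300) were at 0 in every 2 d and 4 d library. At 8 d Lsi1 read 5.57 to 34.5 CPM and at 14 d 36.5 to 72.2 CPM, while Lsi2 reached no more than 5.18 CPM. Transcripts that mark root and green tissue were thus both present in libraries labelled coleoptile, and the part of tissue make-up in the courses below was not tested. In such samples fewer cells of a type and less RNA per cell cannot be told apart.

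All 150 genes passed the filter on low counts, which kept 26180 genes for testing. In IR64 their 8 d means ran from 10.1 to 1340 CPM (median 46.5), and 37 were at 100 CPM or more. The next highest day in IR64 was 14 d for 103 of them, 2 d for 25 and 4 d for 22. At 4 d 45 of the 150 were under 1 CPM in IR64, and at 14 d 11 were. Together the 150 genes took 0.155% to 0.200% of all counts in the 4 d libraries of the 4 genotypes, 1.35% to 2.07% at 8 d and 0.237% to 0.531% at 14 d. Names and roles are known here for 51 of the 150, from the annotation columns of the study's own gene tables. Those tables were held in part and 2225 of their 3800 IDs lie on chromosome 1, so the other 99 are given by ID alone. CPM are not scaled to transcript length and are compared within a gene only.

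The genes at the top of the list were low at 4 d and at 14 d and high between. OS03G0369000, a class III peroxidase gene whose product is secreted and acts on cell wall phenolics, stood first. In IR64 it read 1.25, 1.03 and 0.564 CPM in the 4 d libraries, 222, 178 and 146 CPM at 8 d and 8.82, 1.52 and 6.92 CPM at 14 d. In IR64(AG1), which the choice did not use, it read 2.73, 2.03 and 2.84 CPM at 4 d, 195, 124 and 80 CPM at 8 d and 4.05, 1.88 and 2.05 CPM at 14 d. In IR64(SUB1) the 8 d libraries read 138 and 118 CPM and the 14 d libraries 2.56, 0.73 and 1.17 CPM. In IR64(AG1,SUB1) the 8 d libraries read 150, 190 and 117 CPM and the 14 d libraries 8.98, 11.8 and 12.3 CPM. In every genotype the lowest 8 d library lay above the highest library of any other day. The 8 d level exceeded the 14 d level by 5.55 ± 0.41 on the log2 scale (± SE) in IR64(AG1), with an adjusted p (FDR) of 1.17e-13 by edgeR's quasi-likelihood test, by 6.42 ± 0.45 in IR64(SUB1) and by 3.77 ± 0.36 in IR64(AG1,SUB1).

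**Figure D1:**
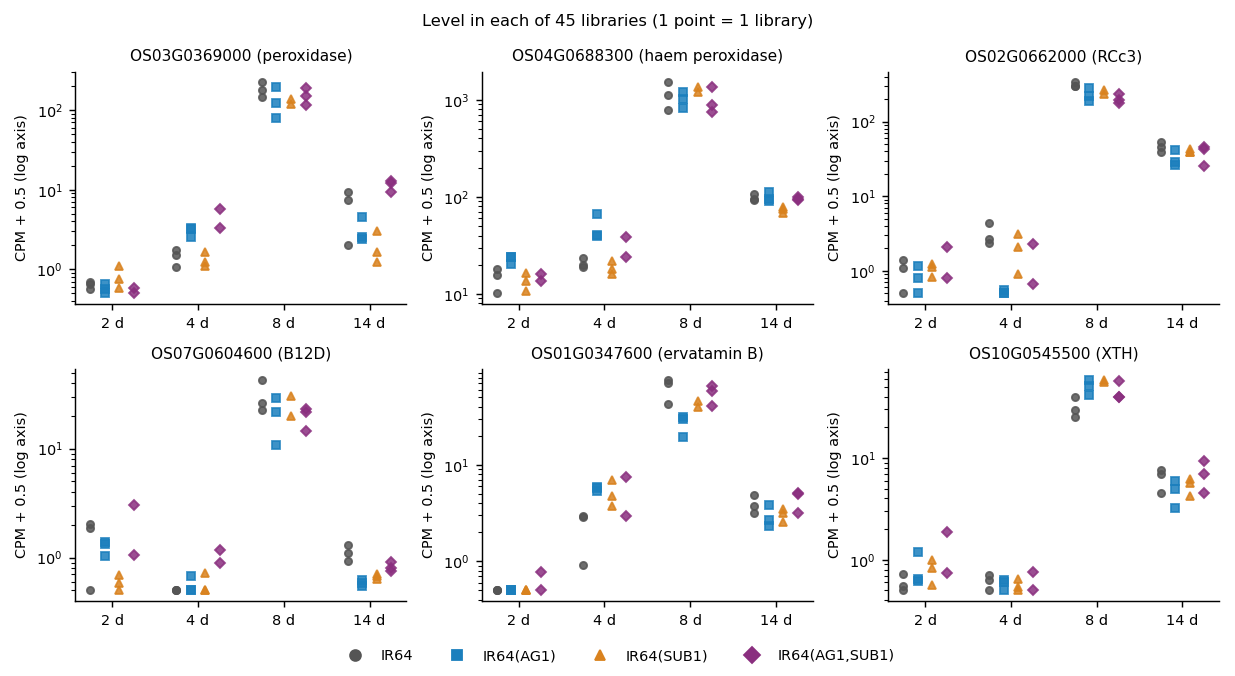
Level of 6 of the 150 genes in each of the 45 libraries, as CPM + 0.5 on a log axis against days under water; a point is 1 library, with colour and shape giving the genotype. For the peroxidase gene OS03G0369000 all 8 d points lie between 80 and 222 CPM and all points of the other days at or below 12.3 CPM.

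Of the other genes among the first 15, 4 have a name. OS07G0604600, annotated as a B12D protein, a small protein first described in barley grain, read 25.9, 42.6 and 22.3 CPM at 8 d in IR64 and 0 in all 3 IR64 libraries of 4 d. Its 8 d libraries read 10.3 to 28.4 CPM in IR64(AG1), 19.6 and 29.9 CPM in IR64(SUB1) and 14.1 to 22.7 CPM in IR64(AG1,SUB1), and no 14 d library of any genotype passed 0.814 CPM. OS01G0347600, annotated as the papain-like cysteine protease ervatamin B, read 75.8, 69.9 and 42.5 CPM at 8 d in IR64, 30.9, 29.1 and 19.1 CPM in IR64(AG1), 45.4 and 39.4 CPM in IR64(SUB1) and 57.5, 65.2 and 40.4 CPM in IR64(AG1,SUB1). Its 14 d libraries lay between 1.81 and 4.57 CPM in the 4 genotypes. OS04G0554500, similar to the root-specific proline-rich protein RCc3, and OS03G0826900, a conserved hypothetical gene (39.6, 53.1 and 44.2 CPM at 8 d in IR64), complete the named genes.

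The other 10 of the first 15 carry no name here. OS07G0676900 read 303, 392 and 383 CPM at 8 d in IR64 against 14.7 to 16.6 CPM at 14 d, and 271 to 423 CPM at 8 d over the 3 introgression lines. OS10G0552600 read 1030, 991 and 1150 CPM at 8 d in IR64, 23.4 to 31.6 CPM at 4 d and 45.2 to 80.3 CPM at 14 d. OS12G0637200 went from at most 0.88 CPM at 4 d to 416, 763 and 459 CPM at 8 d in IR64 and back to 22.8 to 45.1 CPM at 14 d. These genes were low at 4 d, high at 8 d and had largely fallen again by 14 d. OS10G0453900, OS01G0947000, OS03G0809000, OS01G0946700, OS02G0609200, OS07G0604700 and OS01G0615050 had 8 d means in IR64 of 12.5, 72.8, 16.2, 57.7, 45.3, 171 and 133 CPM.

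The same course was present in the lines that had no part in the choice. The day of the highest mean was 8 d for all 150 genes in IR64 (22.9% of tested genes), which the rule itself fixed. It was 8 d for 148 in IR64(AG1) (26.6% of tested genes), 143 in IR64(SUB1) (22.7%) and 147 for IR64(AG1,SUB1) (23.6%). Every 8 d library lay above every library of the other days for 144 genes in IR64 (6.42% of tested genes), for 128 in IR64(AG1) (8.83%), 135 in IR64(SUB1) (11%) and 139 for IR64(AG1,SUB1) (7.77%). Most of the list thus had its highest level at 8 d in each line.

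**Figure D2:**
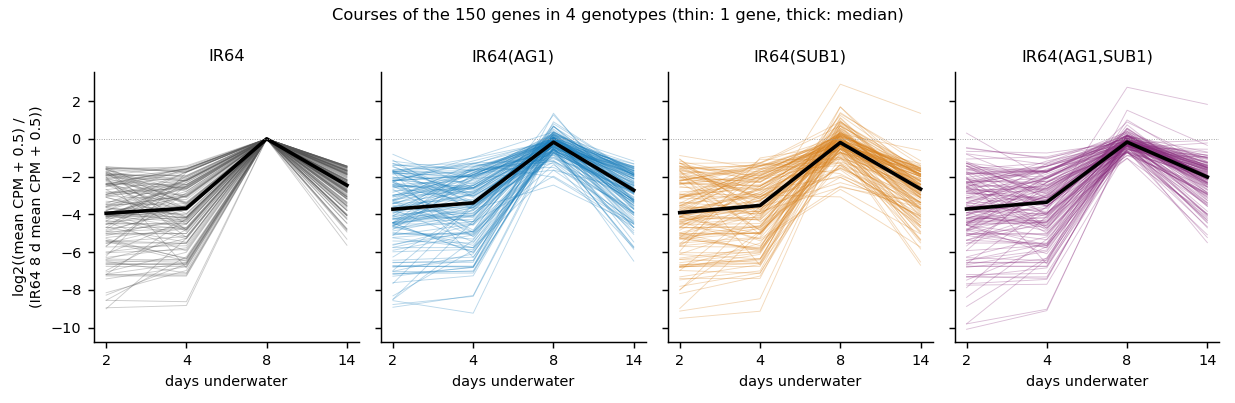
Course of each of the 150 genes over 2, 4, 8 and 14 d in the 4 genotypes, as log2 of the mean CPM + 0.5 relative to the 8 d mean of IR64; thin lines are genes and the thick line is their median. The median peaks at 8 d in each panel, and the genes meet at 0 at 8 d in IR64 because they are scaled to that value.

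Tested with edgeR's quasi-likelihood method (called at FDR under 0.05 and a log2 fold change beyond 1), the rise and the fall were called for most genes in each line. Against 2 d, 132 of the 150 were higher at 8 d in IR64(AG1) (26.1% of tested genes were called higher), 124 in IR64(SUB1) (26.9%) and 133 for IR64(AG1,SUB1) (26.1%). Against 4 d, the counts were 131 in IR64(AG1) (24.8%), 129 in IR64(SUB1) (23.9%) and 139 for IR64(AG1,SUB1) (21.7%). Against 14 d, 146 were higher at 8 d in IR64(AG1) (8.98%), 144 in IR64(SUB1) (8.03%) and 128 for IR64(AG1,SUB1) (7.65%). The median log2 fold change of 8 d over 14 d was 2.49 in IR64(AG1), 2.62 in IR64(SUB1) and 1.97 for IR64(AG1,SUB1), with -0.01, -0.02 and -0.02 over all tested genes. Of the 150, 99 were called higher at 8 d in all 9 of these comparisons. The share of all tested genes called in all 9 was not computed, so nothing is read from this count. OS07G0556500 was the only gene called lower at 8 d than at 4 d, by 1.2 on the log2 scale in IR64(AG1) and by 1.04 in IR64(SUB1). Its 8 d libraries read 31.7, 18.4 and 12.3 CPM in IR64 but 7.36, 4.15 and 2.54 CPM in IR64(AG1) and 6.41 and 4.42 CPM in IR64(SUB1), while the 4 d libraries of these 2 lines read 6.5 to 11.1 CPM and so overlapped the 8 d libraries of IR64(AG1).

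**Figure D3:**
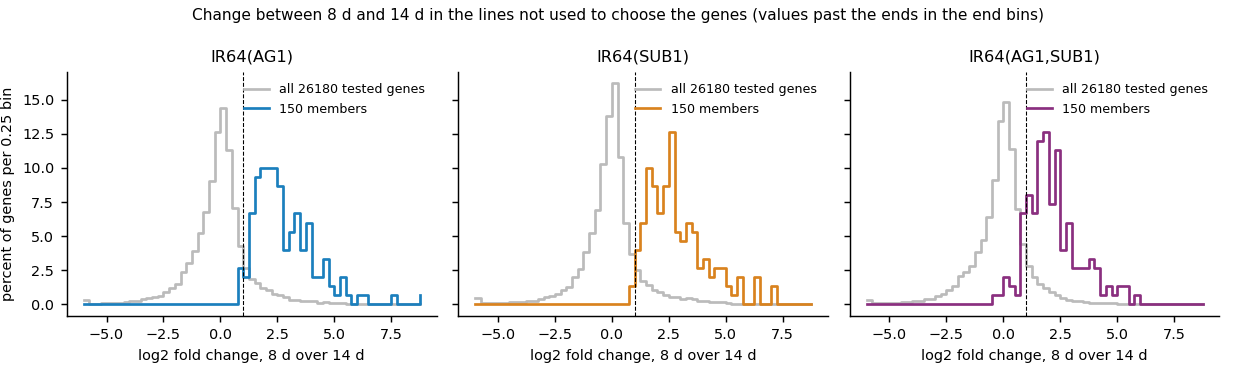
Distribution of the log2 fold change of 8 d over 14 d in the 3 introgression lines, as percent of genes per bin, for the 150 genes (coloured) and for all 26180 tested genes (grey); the dashed line is the call limit of 1. The medians are 2.49, 2.62 and 1.97 for the 150 genes and -0.01, -0.02 and -0.02 for all.

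Cell wall peroxidases gave 6 of the 51 named genes. Class III peroxidases are secreted enzymes that use hydrogen peroxide to cross-link wall phenolics and lignin precursors or to loosen wall polymers. Of the 48 annotated and tested genes of the peroxidase and lignin list, 6 were among the 150, and all 6 were called higher at 8 d than at 4 d and than at 14 d in the 3 lines. Over the whole list 17 genes were higher at 8 d than at 14 d and 7 lower in IR64(AG1), 19 and 9 in IR64(SUB1), and 14 and 9 in IR64(AG1,SUB1). OS04G0688300 read 18.5, 23.1 and 19.4 CPM at 4 d in IR64, 1110, 1510 and 793 CPM at 8 d and 107, 93.4 and 95.3 CPM at 14 d. In the lines its 8 d libraries read 1210, 1030 and 818 CPM in IR64(AG1), 1370 and 1200 CPM in IR64(SUB1), and 1370, 878 and 754 CPM in IR64(AG1,SUB1), so the genotypes overlapped. OS01G0326300 read 231, 295 and 159 CPM at 8 d in IR64 and 135 to 212 CPM over the lines, with 24.2 to 42.9 CPM at 14 d. OS05G0134700 was already present at 2 d. It read 111, 103 and 55.6 CPM at 8 d in IR64 against 15.6 to 20.1 CPM at 2 d, but in IR64(AG1,SUB1) 84, 59.8 and 45.6 CPM against 45.7 and 55.7 CPM, so that the 2 d and 8 d libraries of that line overlapped. Its change from 2 d to 8 d was not called in any line (log2 0.74 in IR64(AG1), 0.21 in IR64(SUB1) and 0.06 for IR64(AG1,SUB1)). OS07G0104500 and OS01G0326100 had 8 d means of 42.8 and 14.8 CPM in IR64.

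RCc3 and related genes of the lipid transfer protein class rose with them. RCc3 was first described as a root-specific transcript of rice, and the class comprises small secreted cysteine-rich proteins. RCc3 itself (OS02G0662000) read 0 to 3.88 CPM in every 2 d and 4 d library of the 4 genotypes. At 8 d it read 334, 301 and 301 CPM in IR64, 222, 283 and 188 CPM in IR64(AG1), 264 and 234 CPM in IR64(SUB1) and 175, 193 and 237 CPM in IR64(AG1,SUB1), and at 14 d 25.3 to 53.1 CPM. It thus fell between 8 d and 14 d while the root silicon transporter gene Lsi1 read higher at 14 d than at 8 d in all 4 genotypes. The fall was called in each line, at log2 2.77 ± 0.30 in IR64(AG1), 2.63 ± 0.31 in IR64(SUB1) and 2.37 ± 0.29 for IR64(AG1,SUB1). The RCc3-like gene OS04G0554800 read 393, 495 and 372 CPM at 8 d in IR64 and 388 to 559 CPM in the lines, against 69 to 152 CPM at 14 d. OS06G0168700, annotated as a proline-rich protein, read 67.4, 84 and 108 CPM at 8 d in IR64 and 59.1 to 105 CPM in the lines. The second RCc3-like gene, OS04G0554500, differed: it read 65.7, 45.6 and 26.8 CPM at 8 d in IR64, 11.6, 10.2 and 2.17 CPM in IR64(AG1), 18.7 and 11.8 CPM in IR64(SUB1) and 19.7, 24.2 and 23.1 CPM in IR64(AG1,SUB1), every library of the 3 lines lying below the lowest of IR64. Since the IR64 libraries chose the genes, that difference from IR64 is a description with no test. The lipid and cuticle list as a whole did not share the fall: of its 108 tested genes 17 were higher at 8 d than at 14 d in IR64(AG1) and 38 lower.

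Other wall genes were few among the named genes. OS10G0545500, similar to a xyloglucan endotransglucosylase/hydrolase, an enzyme that cuts and rejoins the hemicellulose of growing walls, read 24.7, 39 and 29.1 CPM at 8 d in IR64 and 38.9 to 58.5 CPM in the lines. It was at or under 1.37 CPM at 2 d and 4 d in every library and at 2.69 to 8.93 CPM at 14 d. OS07G0539900, similar to a beta-1,3-glucanase, an enzyme that degrades callose, read 15.5, 28.7 and 20.9 CPM at 8 d in IR64 and 18.5 to 32.2 CPM in the lines. For both genes the 8 d libraries of all genotypes lay above all other libraries. The cell wall list held 70 annotated tested genes, of which these 2 were among the 150, and 17 were higher and 16 lower at 8 d than at 14 d in IR64(AG1).

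Genes for protein and nucleic acid breakdown and their inhibitors were also present. OS09G0538000, a gene of the ribonuclease T2 family of RNA-degrading enzymes, was at or below 0.163 CPM at 2 d and 4 d. At 8 d it read 6.81, 84.3 and 47.5 CPM in IR64, 50, 124 and 184 CPM in IR64(AG1), 115 and 187 CPM in IR64(SUB1) and 109, 110 and 181 CPM in IR64(AG1,SUB1), with the lowest value in replicate 1 of each of the 3 genotypes that have one, though by little in IR64(AG1,SUB1). OS01G0615100, similar to a subtilisin and chymotrypsin inhibitor, read 27.8, 30.9 and 19.6 CPM at 8 d in IR64 and 6.6 to 37.7 CPM in the lines. Its neighbour by ID, OS01G0615050, followed the same course. The proteolysis and nuclease list held 85 annotated tested genes, 3 of them among the 150, and 18 were higher and 26 lower at 8 d than at 14 d in IR64(AG1). OS01G0865100, similar to uricase, which oxidises urate in purine breakdown, read 175, 245 and 209 CPM at 8 d in IR64 and 108 to 225 CPM in the lines, against 45.7 to 59.3 CPM at 14 d.

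Regulators were represented by 4 genes of the 209 on the transcription list. OS01G0975300, a MYB-related factor, read 140, 183 and 150 CPM at 8 d in IR64 and 109 to 228 CPM in the lines, against 45.5 to 67 CPM at 14 d. OS01G0185900, similar to a WRKY factor, read 23.4, 27.2 and 20.1 CPM at 8 d in IR64 and 16.9 to 29 CPM in the lines. OS04G0686000, a zinc finger gene of the RING type, read 28.6, 41.4 and 31 CPM and 24.8 to 40.1 CPM. The fourth, the AP2 gene OS02G0546600, varied between replicates and is taken up with the heat shock genes. Of the hormone list, the auxin-responsive SAUR gene OS02G0512000 read 17.9, 20 and 20.5 CPM at 8 d in IR64 and 13.6 to 32.4 CPM in the lines. OS01G0895200, a DOMON-domain gene placed by the study in the auxin-responsive class, read 148, 127 and 97.4 CPM in IR64 and 95.4 to 150 CPM in the lines.

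The remaining lists gave 1 or 2 genes each. OS01G0246400, similar to an early light-inducible protein that binds chlorophyll in greening or light-stressed plastids, was the only one of the 66 tested genes of the photosynthesis list among the 150. It read 26.7, 34.5 and 18 CPM at 8 d in IR64 and 15.3 to 82.2 CPM in the lines, against 4.26 to 15.2 CPM at 14 d, while 29 genes of that list were lower and 6 higher at 8 d than at 14 d in IR64(AG1). From the defence list, the cytochrome P450 gene OS06G0294600 read 31.9, 29.9 and 34.9 CPM at 8 d in IR64 and the thaumatin-like gene OS03G0663400 read 13.1, 12.4 and 7.67 CPM. From the kinase list, the wall-associated kinase-like gene OS04G0598800 read 23.6, 25.9 and 25.7 CPM and the protein kinase gene OS02G0111800 read 15.4, 12 and 4.9 CPM. In the lines OS02G0111800 stayed at 3.29 to 6.98 CPM at 8 d. No gene of the cell division list (50 tested) or of the transporter list (112 tested) was among the 150. The lists hold annotated genes only, so they say nothing about the 99 genes without a name.

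Some of the 150 genes lay near each other by the order of IDs, which are numbered along each chromosome. In all, 39 of them fell into 17 runs in which each gene was within 3 entries of the next. How many genes of other sets of 150 would do so was not computed, so nothing is read from this count. The longest run held 5 genes on chromosome 7, OS07G0429600, OS07G0429700, OS07G0430501, OS07G0431160 and OS07G0432333. At 4 d these 5 read at most 1.43 CPM in any library. At 8 d OS07G0429700 read 433, 472 and 439 CPM in IR64, 420, 417 and 373 CPM in IR64(AG1), 590 and 667 CPM in IR64(SUB1) and 513, 339 and 380 CPM in IR64(AG1,SUB1). Other runs joined the peroxidase genes OS01G0326100 and OS01G0326300, the RCc3-like genes OS04G0554500 and OS04G0554800, the heat shock genes OS03G0266900 and OS03G0267000, and OS07G0604600 (B12D) with OS07G0604700. The 3 genes OS07G0124900, OS07G0125500 and OS07G0126301 had counts within a factor of 1.15 of each other in every 8 d library, so their reads may be shared between near-identical copies and they are counted as uncertain. Runs of neighbours are not independent of each other in the counts above.

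Among the 8 d libraries, heat shock genes mostly read highest in replicate 1. This group was chosen after its values were seen, by the study's heat category, which held 29 annotated tested genes and 7 of the 150. Small heat shock proteins hold unfolded proteins in solution, HSP101-type chaperones dissolve aggregates, and HSP82-type chaperones help proteins fold. OS03G0267000 (hsp18.0) read 620, 88.2 and 158 CPM in replicates 1, 2 and 3 of IR64 at 8 d, 384, 37.8 and 57.4 CPM in IR64(AG1) and 288, 127 and 202 CPM in IR64(AG1,SUB1). In IR64(SUB1), where replicate 1 of 8 d was not analysed here, it read 46.4 and 43.2 CPM. OS05G0519700, annotated as HSP101, read 443, 110 and 160 CPM in IR64, 355, 53.3 and 57.3 CPM in IR64(AG1), 296, 143 and 139 CPM in IR64(AG1,SUB1) and 74 and 49 CPM in IR64(SUB1). Replicate 1 was the highest 8 d library in each genotype that has it, for both genes.

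**Figure D4:**
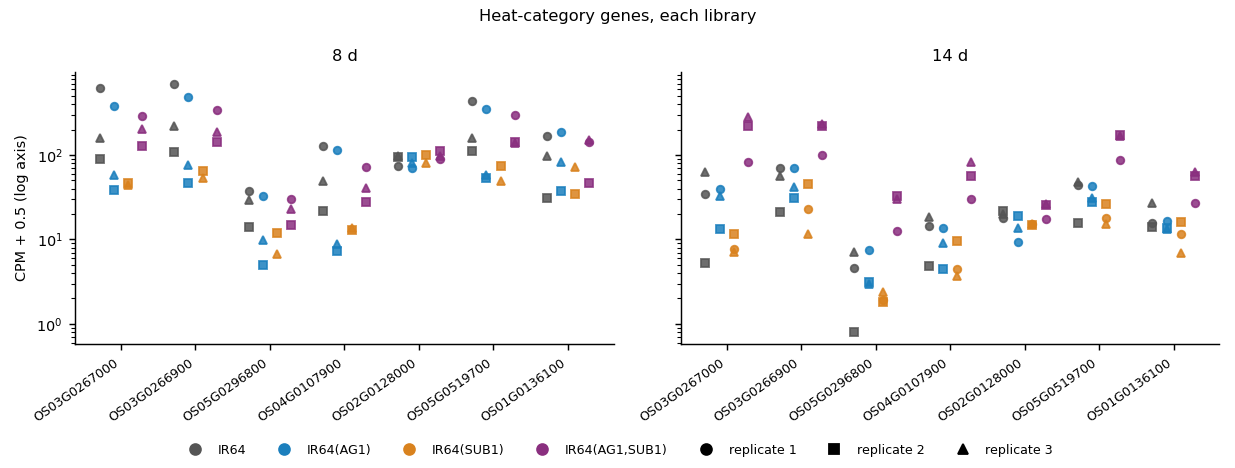
Level of the 7 genes of the study's heat category at 8 d (left) and 14 d (right), as CPM + 0.5 on a log axis; a point is 1 library, colour gives the genotype and shape the replicate. At 8 d replicate 1 (circles) of IR64, IR64(AG1) and IR64(AG1,SUB1) lies highest for hsp18.0 (620, 384 and 288 CPM), and at 14 d the IR64(AG1,SUB1) libraries lie highest (81.4, 223 and 286 CPM).

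In 14 of the 150 genes replicate 1 at 8 d exceeded 1.5 times both other replicates in IR64, IR64(AG1) and IR64(AG1,SUB1), HSP101 among them, while hsp18.0 fell short of this in IR64(AG1,SUB1). Of all tested genes 0.451% did so, but the IR64 libraries of 8 d, replicate 1 included, chose the 150, so nothing is read from the difference. The 14 also included hsp17.3 (OS03G0266900: 690, 107 and 218 CPM in IR64), an HSP82-like gene (OS04G0107900: 126, 21.4 and 48.8 CPM) and the AP2 gene OS02G0546600, similar to RAP2.2 (71.2, 8.83 and 8.36 CPM). The labels give the number of a replicate and nothing more about it, and what set these libraries apart was not tested. Without the replicate 1 libraries of 8 d, an alternative chosen after seeing the data, 2 of the 7 heat genes in place of 7 were called higher at 8 d than at 14 d in IR64(AG1), and 1 in place of 2 in IR64(AG1,SUB1). Over the 150 genes these counts against 14 d were 136 and 123 without these libraries. Against 4 d, 4 of the 7 heat genes in place of 7 were called in IR64(AG1), and 7 in both fits in IR64(AG1,SUB1). Against 2 d the heat counts were 1 in place of 3 and 3 in place of 4. In IR64(SUB1), which has no replicate 1 at 8 d, 5, 5 and 1 of the 7 were called against 14 d, 4 d and 2 d. With all libraries, 8.03%, 23.9% and 26.9% of tested genes were called higher in these comparisons of IR64(SUB1). The shares were 8.98%, 24.8% and 26.1% in IR64(AG1), and 7.65%, 21.7% and 26.1% in IR64(AG1,SUB1). No share was computed for the fit without replicate 1 of 8 d, so nothing is read from the counts of that fit. One heat gene did not read highest in replicate 1 in any genotype. This was OS02G0128000, similar to a cytosolic class I small heat shock protein. It read 73.8, 94 and 97.6 CPM at 8 d in IR64 and 70.7 to 110 CPM in the lines. It was called higher at 8 d than at 14 d in each line, by log2 2.51 ± 0.19 in IR64(AG1), 2.61 ± 0.20 in IR64(SUB1) and 2.11 ± 0.19 for IR64(AG1,SUB1). The other members of the heat category were OS01G0136100, a 16.9 kDa class I heat shock protein gene, and OS05G0296800, which is annotated only as similar to a retrotransposon.

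At 8 d the 3 lines differed from each other in few of the genes. Between IR64(AG1) and IR64(SUB1) 3 of the 150 were called (0.596% of tested genes), all lower in IR64(AG1). Between IR64(AG1,SUB1) and IR64(AG1) 5 were called (1.31%), all higher in the former (OS03G0765500, OS07G0556500, OS01G0644900, OS04G0554500 and OS11G0601950), and between IR64(AG1,SUB1) and IR64(SUB1) 4 (1.47%), 3 of them higher in the former. OS03G0765500, a conserved gene of unknown function, stood furthest apart. At 8 d it read 14.9, 41 and 14.5 CPM in IR64 and 11.7, 30.5 and 11.4 CPM in IR64(AG1), but 241 and 114 CPM in IR64(SUB1) and 227, 171 and 77.9 CPM in IR64(AG1,SUB1). The 2 genotypes with the SUB1 introgression lay wholly above the 2 without it. The level in IR64(AG1) was lower than in IR64(SUB1) by 3.30 ± 0.48 on the log2 scale (FDR 1.44e-05), and that in IR64(AG1,SUB1) was higher than in IR64(AG1) by 3.21 ± 0.46 (FDR 7.48e-06). Neither call was lost in any refit that left out 1 library.

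Most of the other calls at 8 d that were refitted with a library left out were lost in some refits. OS01G0644900, a conserved gene of unknown function, read 6.45, 8.91 and 9 CPM in IR64(AG1), 34.7 and 27 CPM in IR64(SUB1) and 25.6, 23.3 and 20 CPM in IR64(AG1,SUB1), with no overlap between IR64(AG1) and the other lines. Its difference between IR64(AG1) and IR64(SUB1) was no longer called without replicate 1 of IR64(AG1) or replicate 2 of IR64(SUB1) (FDR 0.0753 and 0.185), and that between IR64(AG1,SUB1) and IR64(AG1) was lost in 4 of 6 refits with a library left out (FDR up to 0.0776). OS07G0556500 read 17.2, 20.3 and 13.6 CPM in IR64(AG1,SUB1), above the single-introgression lines given earlier, and was called against both (log2 1.90 and 1.73). The first of these calls held in all 6 refits (FDR up to 0.0255) and the second was lost in 3 of 5 (FDR up to 0.337). OS07G0531400 read 25.5, 22.5 and 12.2 CPM in IR64(AG1,SUB1) and 5.35 and 3.49 CPM in IR64(SUB1), and its call was lost without replicate 3 of IR64(SUB1) at 8 d (FDR 0.247). The calls of OS07G0620700 and of OS05G0217800, a BURP-domain gene and the only one lower in IR64(AG1,SUB1) than in IR64(SUB1), were each lost in 4 of 5 refits, and that of OS07G0432333 between IR64(AG1) and IR64(SUB1) in 4 of 5. Pyruvate decarboxylase read 38.8, 24.5 and 20.4 CPM at 8 d in IR64(AG1), 23.7 and 6.21 CPM in IR64(SUB1), 84.9, 89.6 and 53.3 CPM for IR64(AG1,SUB1) and 93.9, 49.3 and 73.7 CPM in IR64. It was thus higher in every library of IR64(AG1,SUB1) than in the single-introgression lines, as was OS07G0556500. The cellulose synthase marker read 54.4, 76.3 and 69.7 CPM in IR64(AG1), 78.7 and 82.2 CPM in IR64(SUB1), 45.2, 43.3 and 61.3 CPM in IR64(AG1,SUB1) and 19.9, 43.2 and 37.8 CPM in IR64 at 8 d. The part of these 2 markers in the 8 d differences was not tested.

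At 14 d more of the genes differed, and those called against the single-introgression lines were higher in the line with both introgressions. Between IR64(AG1,SUB1) and IR64(AG1) 27 of the 150 were called (2.06% of tested genes), all 27 higher in IR64(AG1,SUB1) (1.71% of tested genes in that direction). Between IR64(AG1,SUB1) and IR64(SUB1) 29 were called (2.27%), all 29 higher in IR64(AG1,SUB1) (2.08%). Against both single-introgression lines 18 were higher. The share of tested genes higher against both was not computed, and both comparisons use the same IR64(AG1,SUB1) libraries. Between IR64(AG1) and IR64(SUB1) 2 were called (0.84%), OS03G0765500 and OS02G0530100. Every 14 d library of IR64(AG1,SUB1) lay above every 14 d library of IR64(AG1) and IR64(SUB1) for 43 of the 150 (5.06% of tested genes). At 8 d this held for 11 (4.09%). The median log2 difference at 14 d was 0.51 against IR64(AG1) and 0.49 against IR64(SUB1), with 0.00 and 0.01 over all tested genes. Leaving out replicate 2 of IR64(AG1,SUB1) at 14 d brought the count against IR64(AG1) down to 17. The share of all tested genes called in that refit was not computed.

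**Figure D5:**
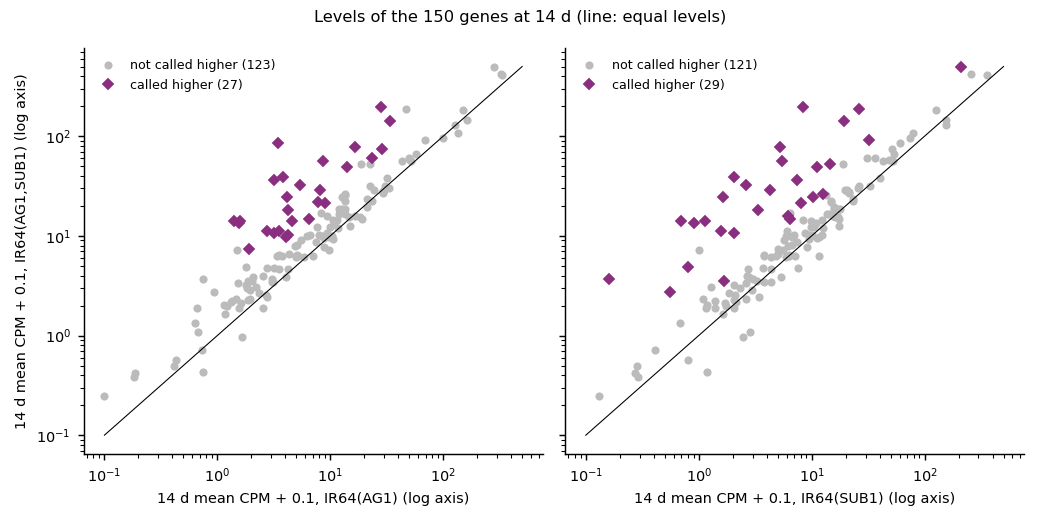
Mean level of each of the 150 genes at 14 d in IR64(AG1,SUB1) against IR64(AG1) (left) and IR64(SUB1) (right), as CPM + 0.1 on log axes; the line marks equal levels and diamonds are genes called higher in IR64(AG1,SUB1). There are 27 such genes on the left and 29 on the right, and none was called lower.

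The genes higher at 14 d in IR64(AG1,SUB1) included heat shock genes. At 14 d hsp18.0 (OS03G0267000) read 81.4, 223 and 286 CPM in IR64(AG1,SUB1), 39.6, 12.8 and 32 CPM in IR64(AG1), 7.16, 11 and 6.63 CPM in IR64(SUB1) and 34, 4.77 and 62.5 CPM in IR64, every library of IR64(AG1,SUB1) lying above all others. It was higher than in IR64(SUB1) by 4.64 ± 0.81 on the log2 scale (FDR 0.000125) and than in IR64(AG1) by 2.77 ± 0.73 (FDR 0.020). Of the 7 heat genes 5 were higher in IR64(AG1,SUB1) than in IR64(AG1) (1.71% of tested genes) and 6 than in IR64(SUB1) (2.08%). The group was picked after its values were seen, and the 29 tested genes of the category were not counted in this way. HSP101 (OS05G0519700) read 86.5, 173 and 170 CPM against 14.9 to 47 CPM in the other genotypes. The ratio of the 8 d mean to the 14 d mean, lowest of the 150 in that line, was 0.825 for OS04G0107900 (HSP82-like), 0.906 for OS05G0296800, 1.03 for OS04G0108101, 1.04 for hsp18.0 and 1.2 for hsp17.3.

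Genes outside the heat category were also higher in IR64(AG1,SUB1). OS07G0620700 read 5.37, 13.8 and 22.7 CPM at 14 d in IR64(AG1,SUB1), 1.59, 1.05 and 1.22 CPM in IR64(AG1), 0.605, 0.639 and 0.563 CPM in IR64(SUB1) and 1.62, 0.0434 and 3.13 CPM in IR64. It was higher than in IR64(SUB1) by 4.60 ± 0.54 (FDR 1.26e-07) and than in IR64(AG1) by 3.40 ± 0.49 (FDR 6.62e-06). The ribonuclease gene OS09G0538000 read 16.6, 58.8 and 33.2 CPM at 14 d in IR64(AG1,SUB1) and 5.18, 2.84 and 1.17 CPM in IR64(AG1), a difference of 3.51 ± 0.68 (FDR 0.00148), while IR64 itself read 5.53, 23.5 and 6.18 CPM. ENOD93 (OS06G0141600), an early nodulin family gene, read 14.6, 50.9 and 31.1 CPM at 14 d in IR64(AG1,SUB1) against 16.4, 1.21 and 14.2 CPM in IR64, which overlapped it, and at most 10.2 CPM in the single-introgression lines, from 8 d levels of 144 to 511 CPM. The AP2 gene OS02G0546600 read 2.41, 4.94 and 3.35 CPM in IR64(AG1,SUB1) and 0.14, 0.0456 and 0 CPM in IR64(SUB1) (FDR 0.00565), a call lost without replicate 3 of IR64(SUB1) at 14 d (FDR 0.0524). For OS03G0765500 the 14 d libraries read 112, 104 and 37.4 CPM in IR64(AG1,SUB1) and 42, 94.3 and 45.8 CPM in IR64(SUB1), which overlapped, against 1.52 to 4.15 CPM in IR64 and IR64(AG1). IR64(AG1) lay below IR64(SUB1) by 4.08 ± 0.51 on the log2 scale (FDR 4.29e-07).

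All 5 genes of the chromosome 7 run were higher at 14 d in IR64(AG1,SUB1) than in IR64(AG1). OS07G0429700 read 63.4 to 95.5 CPM in its 3 libraries against 37.3, 28.3 and 21.1 CPM, a difference of 1.34 ± 0.23 (FDR 0.000148), and OS07G0432333 read 9.94, 6.32 and 5.74 CPM against 2.42, 1.7 and 1.27 CPM. In IR64(SUB1) these 2 genes read 42.5 to 66.3 CPM and 4.47 to 5.66 CPM, and none of the 5 was called between IR64(AG1,SUB1) and IR64(SUB1). OS02G0530100 read 94.9, 76.1 and 36.9 CPM at 14 d in IR64(AG1) and 37.4, 39.2 and 20.2 CPM in IR64(SUB1), a difference of 1.21 ± 0.23 that was no longer called without replicate 1 of IR64(AG1) (FDR 0.0524, log2 0.89) or replicate 3 of IR64(SUB1) (log2 0.95).

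Pyruvate decarboxylase was also higher in every library of IR64(AG1,SUB1) at 14 d than in any other genotype. It read 7.98, 17.1 and 19.4 CPM in IR64(AG1,SUB1), 4.89, 1.62 and 5.47 CPM in IR64(AG1), 0.93, 0.456 and 0.965 CPM in IR64(SUB1) and 6.41, 0.304 and 5.61 CPM in IR64. In IR64(AG1,SUB1) replicate 1 was the lowest library for this marker, for hsp18.0, for OS07G0620700 and for ENOD93, and in IR64 replicate 2 was the lowest for the same 4 genes. The root marker Lsi1 read 52.6 to 72.2 CPM in IR64(AG1,SUB1) and 36.5 to 57.3 CPM in the other genotypes, and the cellulose synthase marker 179 to 204 CPM and 225 to 294 CPM. The part of these markers in the 14 d differences was not tested.

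The size of the fall from 8 d to 14 d was itself compared between lines. It was called different for 2 of the 150 genes between IR64(AG1,SUB1) and IR64(AG1) (0.134% of tested genes) and for 8 between IR64(AG1,SUB1) and IR64(SUB1) (0.237%), and in each the level fell less in IR64(AG1,SUB1). Between IR64(AG1) and IR64(SUB1) the count was 0 by edgeR (0.0306% of tested genes) and 0 by DESeq2, with 9 genes at an unadjusted p under 0.05. OS10G0340301, the last gene taken by rank, was called in both comparisons. It read 44.1, 56.9 and 63.7 CPM at 8 d and 4.67, 15.7 and 21.2 CPM at 14 d in IR64(AG1,SUB1), but 41.2, 28.9 and 31.6 CPM and then 2.05, 1.27 and 1.17 CPM in IR64(AG1), and 28.7 and 33.8 CPM and then 1.07, 0.912 and 1.13 CPM in IR64(SUB1).

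In the single-introgression lines the smallest falls were of other genes. In IR64(AG1) the lowest 8 d to 14 d ratios were 1.94 to 1.95 for the 3 near-equal genes OS07G0126301, OS07G0124900 and OS07G0125500, 2.02 for the P450 gene OS06G0294600 and 2.1 for OS01G0644900. The first 4 of these were the 4 genes not called there, with log2 fold changes of 0.88 to 0.96 that fell short of the limit of 1. In IR64(SUB1) the lowest ratios were 1.75 for OS04G0108101, 1.82 for OS06G0682900, 1.85 for OS02G0460200, 2.05 for the wall-associated kinase-like gene OS04G0598800 and 2.08 for OS04G0352400. For OS04G0352400 the 14 d libraries of IR64(SUB1) read 184, 499 and 84.3 CPM and the 8 d libraries 508 and 555 CPM, and without replicate 2 of 14 d the gene was called higher at 8 d (log2 1.99, FDR 0.0140).

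At the edge of the list the ratio changed little. The last genes taken were OS01G0720700, similar to a serine acetyltransferase, with IR64 means of 3.70, 2.07, 66.5 and 24.2 CPM at 2, 4, 8 and 14 d, and OS10G0340301, with 15.8, 22.8, 62.4 and 3.22 CPM. The first genes left out were OS09G0432900, a glycosyl transferase of family 31 (7.02, 6.93, 31.8 and 11.5 CPM), and OS01G0946600 (0, 0, 10.7 and 3.65 CPM). All 4 had a ratio of 2.70 or 2.71.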

How the data were processed

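RNA-seq counts from 45 libraries of 16 groups (4 genotypes by 4 days) were used. Per the labels and the study's methods, the authors trimmed paired reads of strand-specific poly(A)+ libraries, aligned them with TopHat2 2.0.14 and Bowtie2 2.2.5 to the Nipponbare reference, to which SUB1A-1 had been appended, and counted reads per gene in exon union mode. The deposited values are raw read counts, 1 column per library. CPM here are counts over the column total times 1000000. The 150 genes and all gene lists were chosen with earlier results of these data known.

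Counts were filtered with filterByExpr over the 16 groups, scaled by TMM and fitted in 1 model over all libraries with edgeR 4.0.16 (R 4.3.3; glmQLFit and glmQLFTest). p-values were adjusted by Benjamini-Hochberg over all 26180 tested genes, and a gene was called at FDR under 0.05 and a log2 fold change beyond 1. There were 9 comparisons of days within the 3 lines and 9 between lines (at 8 d, at 14 d and the difference of the change). The comparisons within a line share its 8 d libraries, and those between lines share the libraries of each line. IR64 was not tested, since its libraries chose the genes. On simulated counts for 8 d against 14 d in IR64(AG1), 200 of 200 changed genes were recovered with 4 false calls among 25194 genes. The changed genes were drawn above a minimum level and given a change larger than the call limit. Their spread was set by the mean level alone, with no shift shared by a replicate number. The simulation therefore does not show how often smaller changes or noisier genes are called rightly.

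The text names the first 15 genes by rank, the pairs just inside and outside rank 150, up to 3 genes with the largest log2 difference in each direction among those called between lines, the 5 smallest ratios of 8 d to 14 d per line, and up to 4 genes per list. Genes named outside this rule (ENOD93, uricase, the chromosome 7 run, the heat category, the remaining peroxidases and the genes called for a different fall) were picked after their values were seen. The lipid list counts the category of lipid transfer proteins. Alternatives were DESeq2 1.42.0, the study's own steps (5 counts added, no filter, likelihood ratio test), no filter, fits of the compared groups alone, the replicate number as a block, each library left out, and other ways to choose the genes. The annotation columns of the study's tables gave names and categories only, and none of their values was used.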

Additional observations from a re-analysis of the deposited data

Results flagged for a closer look

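The fall from 8 d to 14 d was called different between lines, by a test of the difference itself (edgeR's quasi-likelihood test), for 2 of the 150 genes between IR64(AG1,SUB1) and IR64(AG1) and for 8 between IR64(AG1,SUB1) and IR64(SUB1). Against IR64(AG1) the difference was 1.08 on the log2 scale for OS12G0442800 (FDR 0.0269) and 2.44 for OS10G0340301 (FDR 0.0261). These calls were lost in 8 and 7 of 12 refits with 1 library left out. Against IR64(SUB1) it was 2.65 for OS03G0369000, 3.79 for OS07G0638400, 1.61 for OS01G0895200, 1.57 for OS02G0530100, 2.29 for OS05G0217800, 2.71 for OS11G0601950, 1.10 for OS12G0442800 and 2.93 for OS10G0340301. Of these, OS10G0340301 (FDR 0.00695) was called in all 11 refits with 1 library left out. The others lost the call in 3 (OS01G0895200) to 10 (OS11G0601950) of the 11. Both comparisons use the same IR64(AG1,SUB1) libraries.

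OS07G0638400 shows the pattern in its libraries. It read 228, 255 and 171 CPM at 8 d and 54.6, 97.5 and 79.7 CPM at 14 d in IR64(AG1,SUB1). In IR64(SUB1) it read 196 and 201 CPM and then 8.79, 1.19 and 5.47 CPM. The 8 d libraries overlapped and the 14 d libraries did not.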

How the results depend on the processing

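The counts of genes higher at 8 d than at 2, 4 or 14 d stayed within 1.5 times the values given under every alternative run. With each library left out in turn they ran from 122 to 140, 124 to 134 and 135 to 147 in IR64(AG1), 120 to 125, 121 to 129 and 132 to 146 in IR64(SUB1), and 124 to 135, 129 to 140 and 121 to 133 in IR64(AG1,SUB1). Lists chosen in other ways shared 121 to 137 of the 150 genes.

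Counts between lines were less stable, and the cause was not tested. The share of all tested genes called was computed for the main fit only. This holds for every alternative fit, those with a library left out or a block included. A change of a count in such a fit therefore cannot be told from a change in calls over all genes. For IR64(AG1) against IR64(SUB1) at 14 d, 2 calls became 5 with DESeq2, 5 with the study's steps and 4 with the compared groups alone. For IR64(AG1,SUB1) against IR64(SUB1) at 8 d, 4 became 16 with the compared groups alone. For the difference of the fall, 2 against IR64(AG1) became 5 with DESeq2, 8 with the study's steps, 0 with the compared groups alone, 0 for a list chosen with TMM sizes and 1 for a list chosen without IR64 8 d replicate 3, and 8 against IR64(SUB1) became 15 with DESeq2 and 5 for that last list. Without the 8 d replicate 1 libraries (chosen after seeing the data) IR64(AG1,SUB1) against IR64(AG1) at 8 d went from 5 to 8, against IR64(SUB1) from 4 to 9, and the differences of the fall from 2 to 5 and from 8 to 17.

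With 1 library left out, IR64(AG1) against IR64(SUB1) gave 1 to 3 at 8 d (1 without IR64(SUB1) 8 d replicate 2), 1 to 3 at 14 d (1 without IR64(AG1) 14 d replicate 1) and 0 for the fall. IR64(AG1,SUB1) against IR64(AG1) gave 2 to 12 at 8 d (2 without IR64(AG1) 8 d replicate 2, 12 without its replicate 1), 17 to 32 at 14 d (17 without IR64(AG1,SUB1) 14 d replicate 2) and 0 to 5 for the fall. Against IR64(SUB1) it gave 0 to 4 at 8 d (0 without IR64(SUB1) 8 d replicate 3), 21 to 32 at 14 d and 2 to 10 for the fall (2 without IR64(AG1,SUB1) 14 d replicate 2). Where IR64(SUB1) at 8 d is left with 1 library, it is assumed to vary like the other groups.

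Deviations of same-numbered libraries had a median correlation of 0.0118 (2 d), 0.0103 (4 d), 0.115 (8 d) and 0.0922 (14 d). Libraries of different numbers had medians of -0.00432, -0.00369, -0.063 and -0.0755. Same-numbered libraries were thus closer to each other at 8 d and 14 d, with pairs up to 0.274 and 0.235. On each day the lowest pair lay below 0.1 (-0.03 at 8 d and -0.0998 at 14 d), although the 8 d median of 0.115 was above it. The replicate numbers were not taken as pairs. The main fit leaves this likeness out. With the replicate number as a block, the count between IR64(AG1) and IR64(SUB1) at 14 d was 5 and that for the fall against IR64(AG1) was 4. All other counts stayed within 1.5 times.

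Of 1081 alternatives for 88 single-gene results, 967 kept the call, 103 lost it, 11 gained it and none reversed direction. At 12256409 to 24870831 counts per library, a level under 1 CPM rests on few reads.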
